A study of Arabidopsis thaliana with 9 samples.

Results

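The genes CYP707A1 (AT4G19230), CYP707A2 (AT2G29090) and CYP707A3 (AT5G45340) encode abscisic acid 8'-hydroxylases of Arabidopsis thaliana. They were taken by locus identifier and are 3 of the 22555 genes listed for at least 1 of the 9 libraries, with a value of their own in each. The fourth gene of the family, CYP707A4, was not analysed here. RNA came from freshly harvested seeds of lines that all carried DOF6ioex, an estradiol-inducible construct that overexpresses DOF6, a gene for a DOF transcription factor. The 3 groups of 3 libraries were DOF6ioex seeds imbibed in mock, given as water in the labels, DOF6ioex seeds imbibed in β-estradiol, and rgl2-13 DOF6ioex seeds imbibed in β-estradiol. Imbibition lasted 8 h and the estradiol dose was 50 µM. The mutation rgl2-13 lies in RGL2, which encodes a DELLA repressor of gibberellin signalling. No group analysed here was an estradiol-treated line without the construct or rgl2-13 DOF6ioex in mock, so DOF6 induction and estradiol itself cannot be told apart. The labels do not give the promoter behind the induction system, the number of transgenic lines, or whether replicates were separate harvests. The p-values therefore measure the spread between these samples, which may be technical.

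Abscisic acid (ABA) is the hormone that keeps seeds dormant, and its level falls when seeds take up water. The CYP707A enzymes are cytochrome P450 monooxygenases that hydroxylate ABA at its 8' position, and the product rearranges to phaseic acid, which has little activity. In Arabidopsis, CYP707A1 is known for lowering ABA during mid-maturation of the embryo, CYP707A2 for the fall of ABA in late maturation and at imbibition, and CYP707A3 for ABA breakdown in vegetative tissue after stress and rehydration. ABA is also inactivated by coupling to glucose, and it is made from carotenoids by the pathway through the 9-cis-epoxycarotenoid dioxygenases (NCEDs).

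The deposited unit was FPKM, fragments per kilobase of transcript scaled to a fixed number of mapped fragments, so levels of different genes can be compared per length. The step between low values pointed to 26600000 to 28800000 fragments per library, an estimate that differed by a factor of 1.08 between the shallowest and the deepest. For DOF6 the mock mean was 0.637 ± 0.225 FPKM, that of DOF6ioex estradiol 33.9 ± 1.98 and that of rgl2-13 DOF6ioex estradiol 33.7 ± 16.3 (SD, n = 3). RGL2 averaged 10.8 ± 2.13, 8.59 ± 1.39 and 17.6 ± 1.36 FPKM (SD, n = 3) in the same order, so the transcript was higher under the mutant label (limma adjusted p = 0.0184 against DOF6ioex estradiol). No part of RGL2 that the allele disrupts is named in the labels, and directions for the libraries labelled rgl2-13 DOF6ioex are those of their label. Replicate 1 of the libraries labelled rgl2-13 DOF6ioex stood apart, at 37.3 on a first principal component where the other 8 lay between -12.9 and 7.13, and its median-of-ratios size factor was 1.189. The 9 mature seed markers summed to 71997 to 117483 FPKM in every library, so the seed label was borne out, whereas 4 green tissue markers summed to 19.86 to 39.64 FPKM.

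In RefSeq's TAIR10.1 annotation, CYP707A1 lies on the plus strand at chr4:10521259-10523961, CYP707A2 on the minus strand at chr2:12494826-12499723 and CYP707A3 on the minus strand at chr5:18368532-18371021. The files name no build, but 91.7% of 12359 loci with a single RefSeq transcript had the same length in the deposited tables. CYP707A1 and CYP707A3 were the closest pair, with 82.7% identical coding bases and a longest shared run of 44 bases. CYP707A2 shared 64.8% with CYP707A1 and 63.7% with CYP707A3, with no shared run over 20 bases. How the authors' counting treated reads that match both CYP707A1 and CYP707A3 is not given in the sources used here.

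Since the induced protein is a DOF factor, the 250 bases before the outermost annotated start of each gene are shown, 5′ to 3′ along the gene's strand, with capitals on AAAG, the core that DOF factors bind, read on either strand (CTTT on the strand shown). The windows are chr4:10521009-10521258 (plus) for CYP707A1, chr2:12499724-12499973 (minus) for CYP707A2 and chr5:18371022-18371271 (minus) for CYP707A3, from the RefSeq TAIR10.1 genome.
CYP707A1: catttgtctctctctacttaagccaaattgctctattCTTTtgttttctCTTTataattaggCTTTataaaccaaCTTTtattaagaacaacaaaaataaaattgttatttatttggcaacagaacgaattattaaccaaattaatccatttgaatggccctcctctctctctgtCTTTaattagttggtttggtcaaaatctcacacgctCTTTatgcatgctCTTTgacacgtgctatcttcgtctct
CYP707A2: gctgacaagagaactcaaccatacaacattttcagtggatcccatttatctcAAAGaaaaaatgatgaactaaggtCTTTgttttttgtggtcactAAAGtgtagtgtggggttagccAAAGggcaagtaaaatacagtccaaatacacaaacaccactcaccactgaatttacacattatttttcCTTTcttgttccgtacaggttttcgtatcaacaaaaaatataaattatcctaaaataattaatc
CYP707A3: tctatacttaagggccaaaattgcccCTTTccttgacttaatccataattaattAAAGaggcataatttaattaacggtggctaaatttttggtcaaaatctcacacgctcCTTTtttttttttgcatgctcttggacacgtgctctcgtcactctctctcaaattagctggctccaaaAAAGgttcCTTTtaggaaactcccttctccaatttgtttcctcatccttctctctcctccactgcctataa
CYP707A1 held 7 matches, all on the opposite strand, and CYP707A2 and CYP707A3 held 5 each on both strands. The median of 27438 protein-coding promoters of this length was 4 matches and 98% held at least 1. At least 7 were found in 13.6% of them and at least 5 in 39.4%. The motif ACGTG, the core of the ABA-responsive element, was matched on both strands by a single palindromic CACGTG in CYP707A1 and in CYP707A3, and had no match in this window of CYP707A2. It was found at least once in 22.9% of all promoters. CYP707A1 and CYP707A2 each have 2 annotated start sites and CYP707A3 has 1, and only the bases before the outermost were searched. Which start is used in these seeds was not tested.

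**Figure D1:**
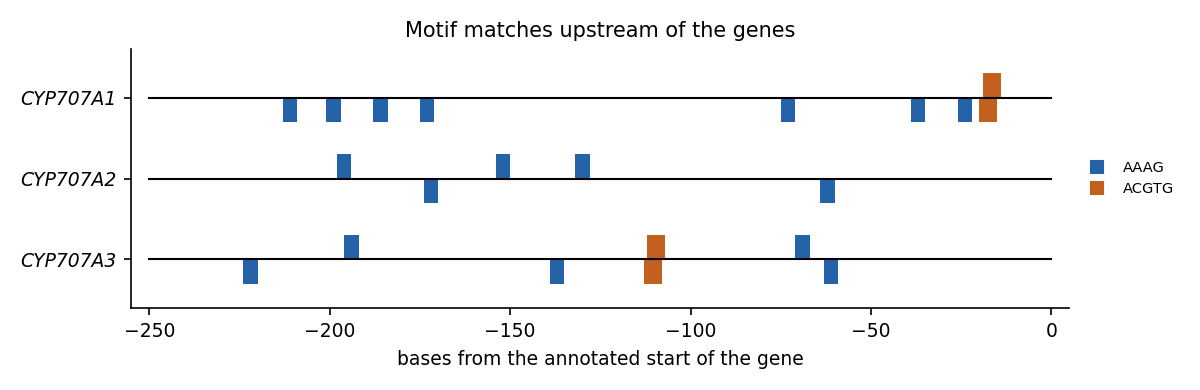
Positions of AAAG (blue) and ACGTG (orange) matches in the 250 bases before the outermost annotated start of each gene. Marks above a line are on the gene's own strand and marks below it on the opposite strand, and the 7 AAAG matches of CYP707A1 all lie below the line.

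The windows of CYP707A1 and CYP707A3 shared 3 identical runs of 10 bases or more in the same order, shown because they join the closest pair of the family. Capitals mark the palindrome that holds ACGTG.
Run 1: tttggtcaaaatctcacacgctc
Run 2: tgcatgctctt
Run 3: gaCACGTGct
Counted from the outermost annotated start, run 1 began at -61 in CYP707A1 and -162 in CYP707A3, run 2 at -34 and -127, and run 3 at -22 and -115. CYP707A2 shared no run of more than 9 bases with either gene.

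In these imbibed seeds CYP707A2 was by far the most abundant transcript of the 3. The mock libraries read 29.14, 28.53 and 29.25 FPKM, the DOF6ioex estradiol libraries 38.06, 37.39 and 37.61, and the libraries labelled rgl2-13 DOF6ioex 48.02, 37.60 and 42.85. The mock libraries were the lowest and did not overlap either estradiol group, while the estradiol groups overlapped each other. CYP707A2 made up 93 to 96% of the summed FPKM of the 3 genes in each library and stood above 88 to 91.5% of all 22555 genes.

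For CYP707A3 the mock libraries read 1.77, 1.19 and 1.1 FPKM, the DOF6ioex estradiol libraries 1.68, 1.22 and 1.25, and the mutant-labelled libraries 1.68, 1.5 and 1.47. The 3 groups overlapped, and replicate 1 was the highest library in each. CYP707A3 contributed 3.13 to 5.65% of the summed level and stood above 42.1 to 46.6% of genes.

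For CYP707A1, mock gave 0.43, 0.23 and 0.40 FPKM, DOF6ioex estradiol 0.57, 0.40 and 0.32, and the mutant label 0.34, 0.45 and 0.50. These groups overlapped too. CYP707A1 contributed 0.679 to 1.41% of the summed level and stood above 29.4 to 36.2% of genes. The order CYP707A2, CYP707A3, CYP707A1 held in each of the 9 libraries. In FPKM, CYP707A2 was 16.5 to 30.6 times CYP707A3, and CYP707A3 was 2.75 to 5.17 times CYP707A1.

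**Figure D2:**
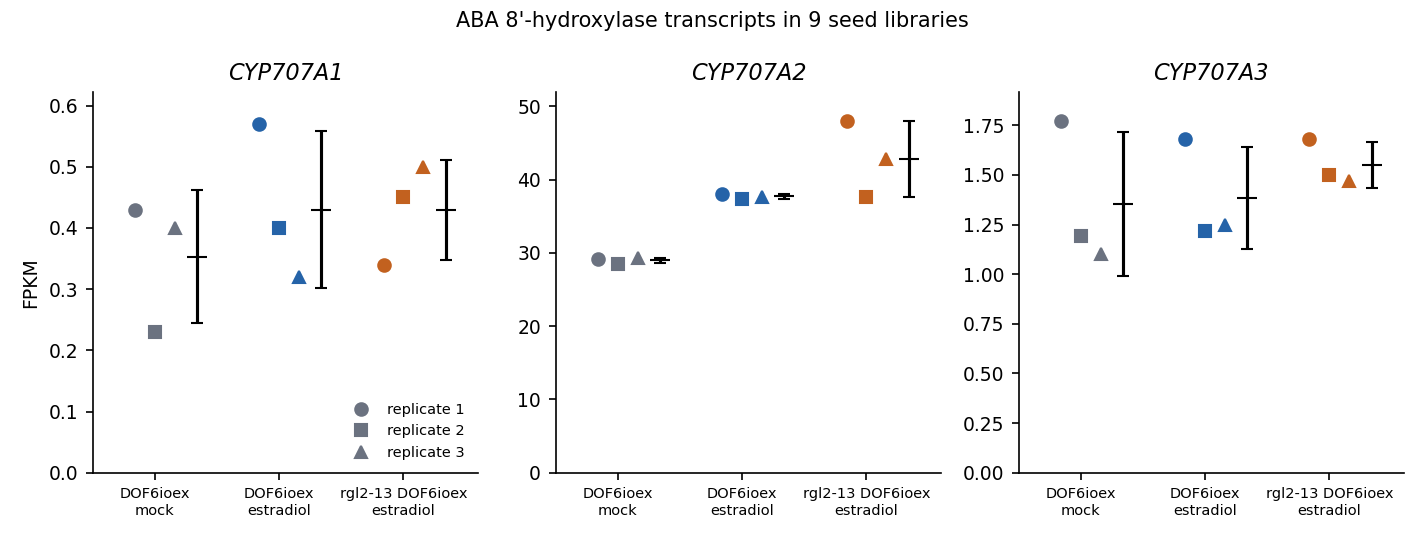
FPKM of CYP707A1, CYP707A2 and CYP707A3 in each of the 9 libraries, by group, with a scale of its own for each gene that starts at 0 (points are libraries, bars the mean and SD of 3). The mock libraries of CYP707A2 lie between 28.53 and 29.25, below every estradiol library, and the groups of the other genes overlap.

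By the same depth estimate, CYP707A2 rested on 1382 to 2386 fragments per library, CYP707A3 on 60 to 92 and CYP707A1 on 13 to 31. For CYP707A1 the coefficient of variation within a group was 19 to 30.5%, against 20.3 to 22.4% from counting error alone. For CYP707A3 it was 26.9%, 18.6% and 7.33% in mock, DOF6ioex estradiol and under the mutant label, against 11 to 11.8% from counting. In unscaled FPKM, the mock and DOF6ioex estradiol libraries of CYP707A2 were unusually alike. Their coefficients of variation were 1.34 and 0.906%, below the 2.66 and 2.31% that counting error alone would give at the estimated depth. The depth estimate and the independence of these libraries were not tested, and what the CYP707A2 spread and its p-values mean depends on both. On the log2(FPKM + 1) scale, 0.0512% of the 13679 genes tested had a smaller within-group SD there than the 0.016 of CYP707A2, where the median gene had 0.115. In the libraries labelled rgl2-13 DOF6ioex its SD was 0.173, close to the median gene's 0.15, and its coefficient of variation was 12.2%. After median-of-ratios scaling the coefficients were 0.888, 4.55 and 4.91% in mock, DOF6ioex estradiol and under the mutant label. The closeness of the DOF6ioex estradiol libraries and the wide spread under the mutant label thus depended on the scaling.

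Setting estradiol against mock within DOF6ioex compares seeds with and without estradiol, and with it DOF6 induction, which cannot be told apart here. The mean of CYP707A2 went from 29.0 ± 0.388 FPKM in mock to 37.7 ± 0.342 in DOF6ioex estradiol (SD, n = 3), a ratio of means of 1.3. The groups did not overlap, which also held, in this direction, for 10.6% of the genes tested. The difference was 0.37 ± 0.093 on the log2(FPKM + 1) scale (SE, 95% interval 0.17 to 0.57), against a median of 0.039 over all tested genes, and 98.6% of tested genes had a lower difference. It missed the threshold of 0.05 over all genes tested (limma, Benjamini-Hochberg adjusted p = 0.311), which 0.154% of genes passed in either direction and 0.0292% upward. An exact two-sided permutation test of the log2(FPKM + 1) values gave p = 0.1, the smallest that 3 libraries against 3 allow. In bulk seed RNA, a change in the share of cells that carry a transcript and a change per cell cannot be told apart.

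The call for CYP707A2 depended on which libraries entered the fit and its estimate of spread. With the 6 libraries of this comparison alone the difference was the same 0.37 and passed (limma adjusted p = 0.036), and leaving out the mutant-labelled replicate 1 let it pass as well (limma adjusted p = 0.0329). Those fits called 100 of 13679 and 90 of 13571 tested genes, against 21 of 13679 as reported. They were the only 2 of 16 other settings in which CYP707A2 passed. With median-of-ratios scaling, for example, its difference was 0.326 and missed the threshold (limma adjusted p = 0.0871). CYP707A3 averaged 1.35 ± 0.364 and 1.38 ± 0.257 FPKM (SD, n = 3), with a log2(FPKM + 1) difference of 0.024 ± 0.126 (SE, 95% interval -0.25 to 0.30, limma adjusted p = 0.974). CYP707A1 averaged 0.353 ± 0.108 and 0.430 ± 0.128 FPKM (SD, n = 3). It did not reach 1 FPKM in any library and missed the filter on low values, and in a fit of all genes its difference was 0.079 ± 0.0821 (SE, 95% interval -0.11 to 0.27, limma adjusted p = 0.885). The log2(FPKM + 1) scale understates changes of genes this low, and the log2 ratio of the means was 0.283. Neither CYP707A3 nor CYP707A1 was shown to differ, and changes within these intervals were not excluded.

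The libraries labelled rgl2-13 DOF6ioex and DOF6ioex, both in estradiol, were compared by label. Here the allele cannot be told apart from other differences between the lines, including the level of DOF6. DOF6 read 52.25, 21.43 and 27.54 FPKM under the mutant label and 33.73, 32.05 and 36 in DOF6ioex estradiol. CYP707A2 averaged 42.8 ± 5.21 FPKM under the mutant label (SD, n = 3), 1.14 times the DOF6ioex estradiol mean, and the groups overlapped. The log2(FPKM + 1) difference was 0.17 ± 0.093 (SE, 95% interval -0.030 to 0.38, limma adjusted p = 0.38), in a comparison where 0.161% of tested genes passed. Of all tested genes 0.139% passed upward, and 15.8% were higher without overlap. The median of all tested genes was shifted by 0.11 in the same direction, which leaves 0.066 for CYP707A2 relative to it. After median-of-ratios scaling the libraries labelled rgl2-13 DOF6ioex read 40.39, 37.54 and 41.28 and the DOF6ioex estradiol libraries 39.52, 38.75 and 36.21, with a difference of 0.057. Without the mutant-labelled replicate 1 the unscaled difference was 0.089, and without replicate 2 it was 0.26 (limma adjusted p = 0.837 and 0.139). CYP707A3 averaged 1.55 ± 0.114 FPKM (SD, n = 3), a difference of 0.10 ± 0.126 (SE, limma adjusted p = 0.665) that was -0.0053 relative to the shift of the median gene. CYP707A1 averaged 0.430 ± 0.0819 FPKM (SD, n = 3), the same mean as in DOF6ioex estradiol, with a 95% interval of the difference from -0.19 to 0.19.

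The libraries labelled rgl2-13 DOF6ioex and those of DOF6ioex in mock differ in label and in treatment together. CYP707A2 rose in this comparison, with a ratio of means of 1.48 and a log2(FPKM + 1) difference of 0.54 ± 0.093 (SE, 95% interval 0.34 to 0.74, limma adjusted p = 0.0283). The call is one that 0.57% of tested genes shared, or 0.453% in the upward direction. The groups did not overlap, as in 27.3% of tested genes in this direction, and the exact two-sided permutation p was 0.1. The median of all tested genes was 0.14 higher, so relative to it CYP707A2 was 0.40 higher. With median-of-ratios scaling it was 0.38 higher and passed (limma adjusted p = 0.0306). With that scaling 66 of 141 called genes were higher, against 62 of 78 without it.

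The call did not hold under every setting. It was lost when any one mock library was left out (limma adjusted p = 0.101, 0.151 and 0.0613 for replicates 1, 2 and 3), without DOF6ioex estradiol replicate 2 (0.0708) or 3 (0.0507), and when the mutant-labelled replicate 3 was left out (0.0825). The same difference also missed the threshold with the 6 libraries of this comparison alone (limma adjusted p = 0.114) and without the filter on low values (0.119). With the mutant-labelled replicate 1 left out, the library that stood apart, the difference was 0.46 and passed (limma adjusted p = 0.0203). On the log2(FPKM + 1) scale CYP707A3 differed by 0.13 ± 0.126 (SE, 95% interval -0.15 to 0.40, limma adjusted p = 0.524), and CYP707A1 by 0.081 ± 0.0821 (SE, 95% interval -0.11 to 0.27, limma adjusted p = 0.627). The comparisons of both estradiol groups with mock share the mock libraries, and the 3 comparisons of CYP707A2 are not independent.

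**Figure D3:**
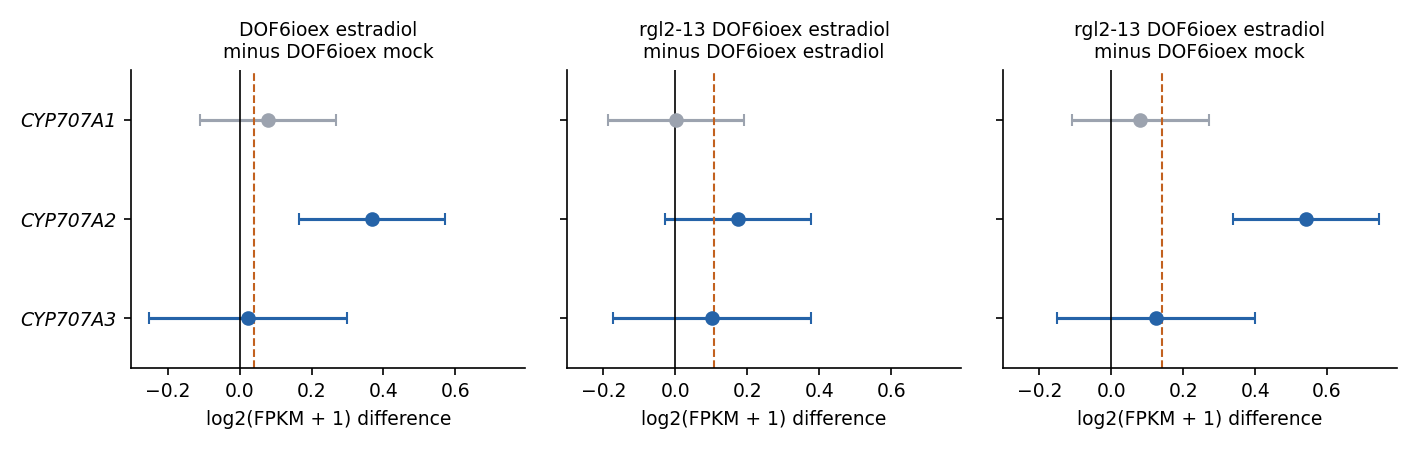
Difference in log2(FPKM + 1) of each gene in the 3 comparisons, with 95% intervals from limma (blue, fit of filtered genes; grey, fit without the filter). The dashed line is the median of all tested genes, at 0.039, 0.11 and 0.14 from left to right, and the interval of CYP707A2 lies above it in the panels against mock.

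**Figure D4:**
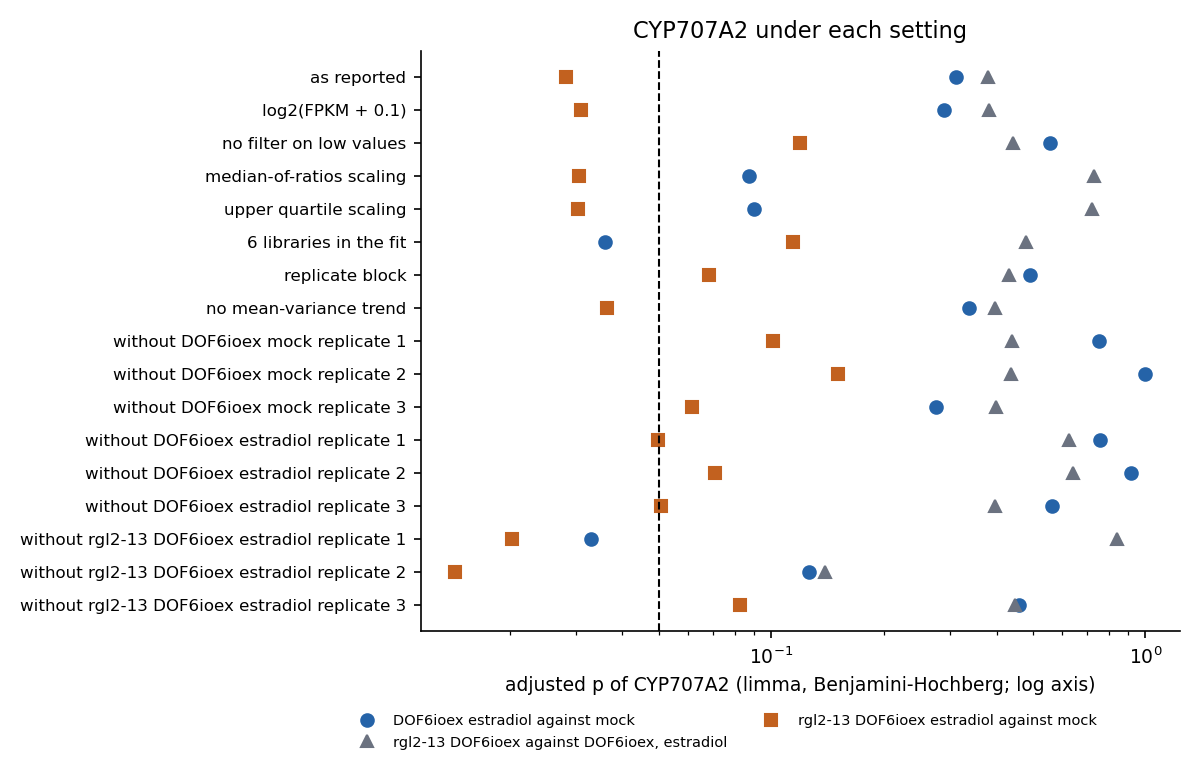
Adjusted p of CYP707A2 (log axis) as reported and under 16 other settings, for the 3 comparisons, with the threshold of 0.05 as a dashed line. The mutant label against mock passes in 7 of the 16 settings, DOF6ioex estradiol against mock in 2, and the labels within estradiol in 0.

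The authors' deposited table of single library pairs gave CYP707A2 a log2 ratio of estradiol to mock of 0.39, 0.39 and 0.36 in pairs 1 to 3, with deposited p-values of 9.05e-17, 1.32e-20 and 1.29e-14. For rgl2-13 DOF6ioex over DOF6ioex in estradiol, the authors' deposited table gave CYP707A2 0.34, 0.0081 and 0.19, with deposited p-values of 8.15e-18, 0.735 and 6.73e-06. These values compare 2 libraries each and not the conditions. In the authors' deposited table CYP707A1 ranged over the 6 pairs from -0.75 to 0.80, with deposited p-values from 0.0355 upward. The authors' deposited table of genes past their own threshold held 228 genes for estradiol over mock and 248 for rgl2-13 DOF6ioex over DOF6ioex in estradiol. The smallest absolute log2 ratio on these lists was 2.024 and 2, in that order. On either list were 0 of the 3 hydroxylases. Their pair ratios were all smaller, at most 0.80 for CYP707A1, so the absence follows from that cutoff.

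The other routes of ABA turnover were read from lists of conjugation, synthesis, transport and regulator genes. In the comparison of estradiol with mock, and in that of the labels within estradiol, 0 of the 16 tested genes of these lists passed in either direction. The background was 0.154 and 0.161% of genes. At an unadjusted p under 0.05, 3, 4 and 5 of the 16 passed in the 3 comparisons, against 6.82, 15.2 and 25.2% of all tested genes. BGLU33, a conjugate-releasing glucosidase gene, was not analysed here. Between the libraries labelled rgl2-13 DOF6ioex and mock, 1 of 4 tested conjugation genes rose, against 0 of 7 for synthesis, 0 of 3 for transport and 0 of 2 for regulators. In that comparison 0.57% of all tested genes passed and 0.453% rose. The riser was UGT71B8, an ABA glucosyltransferase gene next to its close relatives UGT71B6 and UGT71B7, with which it may share reads. It read 2.17, 2.11 and 1.88 FPKM in mock, 2.61, 2.72 and 3.08 in DOF6ioex estradiol and 3.36, 3.85 and 3.31 under the mutant label. No group overlapped another, and 10.6%, 15.8% and 27.3% of all tested genes were likewise higher without overlap in the 3 comparisons. The log2(FPKM + 1) difference from mock was 0.56 ± 0.0973 (SE, limma adjusted p = 0.029), and it missed the threshold with median-of-ratios scaling (0.44, limma adjusted p = 0.0657). The median log2 difference from mock of the 4 conjugation genes was 0.14 in this comparison, equal to that of all tested genes.

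Among the conjugation genes, UGT71B7 had a level of the order of CYP707A2, at 37.3 ± 2.56, 38.0 ± 0.456 and 41.3 ± 2.58 FPKM in mock, DOF6ioex estradiol and the libraries labelled rgl2-13 DOF6ioex (SD, n = 3). UGT71C5, which encodes another ABA glucosyltransferase, averaged 5.68, 6.09 and 6.35 FPKM, and UGT71B6 2.71, 2.58 and 2.64. Of the synthesis genes, ABA1, the zeaxanthin epoxidase gene, was highest at 88.8 ± 8.86, 95.5 ± 2.18 and 85.5 ± 5.18 FPKM (SD, n = 3). ABA3, which encodes the molybdenum cofactor sulfurase, averaged 10.8, 12.3 and 12.4 FPKM, and ABA2, which encodes xanthoxin dehydrogenase, 2.85, 3.06 and 3.49. NCED9, the most abundant of the NCED genes and known for ABA synthesis in seeds, read 4.43, 5.19 and 5.21 FPKM in mock, 6.26, 5.88 and 5.40 in DOF6ioex estradiol and 6.89, 6.46 and 6.47 under the mutant label. The mock libraries were lowest. Of all tested genes, 10.6% were likewise higher without overlap in DOF6ioex estradiol than in mock, and 27.3% under the mutant label than in mock. The difference of the mutant-labelled libraries from mock missed the threshold for NCED9 (limma adjusted p = 0.0905). CYP707A2 was 3.33 to 4.03 times the summed NCED level in mock, 4.18 to 4.39 times in DOF6ioex estradiol and 3.76 to 4.67 times under the mutant label.

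Of the transport genes, ABCG25, an ABA exporter gene, averaged 4.90 ± 0.935, 4.80 ± 0.519 and 7.21 ± 0.64 FPKM (SD, n = 3), and the difference of the mutant-labelled libraries from mock missed the threshold (limma adjusted p = 0.0878). The transporter genes ABCG31 and NPF4.6 averaged 4.85, 4.78 and 5.19 FPKM and 1.75, 1.51 and 2.33 FPKM. NLP8, a nitrate-responsive regulator reported to bind the CYP707A2 promoter, averaged 42.6 ± 7.16 FPKM in mock, 57.8 ± 5.54 in DOF6ioex estradiol and 57.6 ± 1.59 under the mutant label (SD, n = 3). Its mock libraries read 41.38, 36.11 and 50.27 FPKM and its DOF6ioex estradiol libraries 58.41, 63.03 and 52.00, so they did not overlap, as in 10.6% of tested genes in this direction, and the log2(FPKM + 1) difference of 0.44 ± 0.117 missed the threshold (SE, limma adjusted p = 0.364). ABI4, reported to repress CYP707A1 and CYP707A2, read 44.93 FPKM in replicate 1 of the libraries labelled rgl2-13 DOF6ioex and 17.21 to 26.55 in the other 8.

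**Figure D5:**
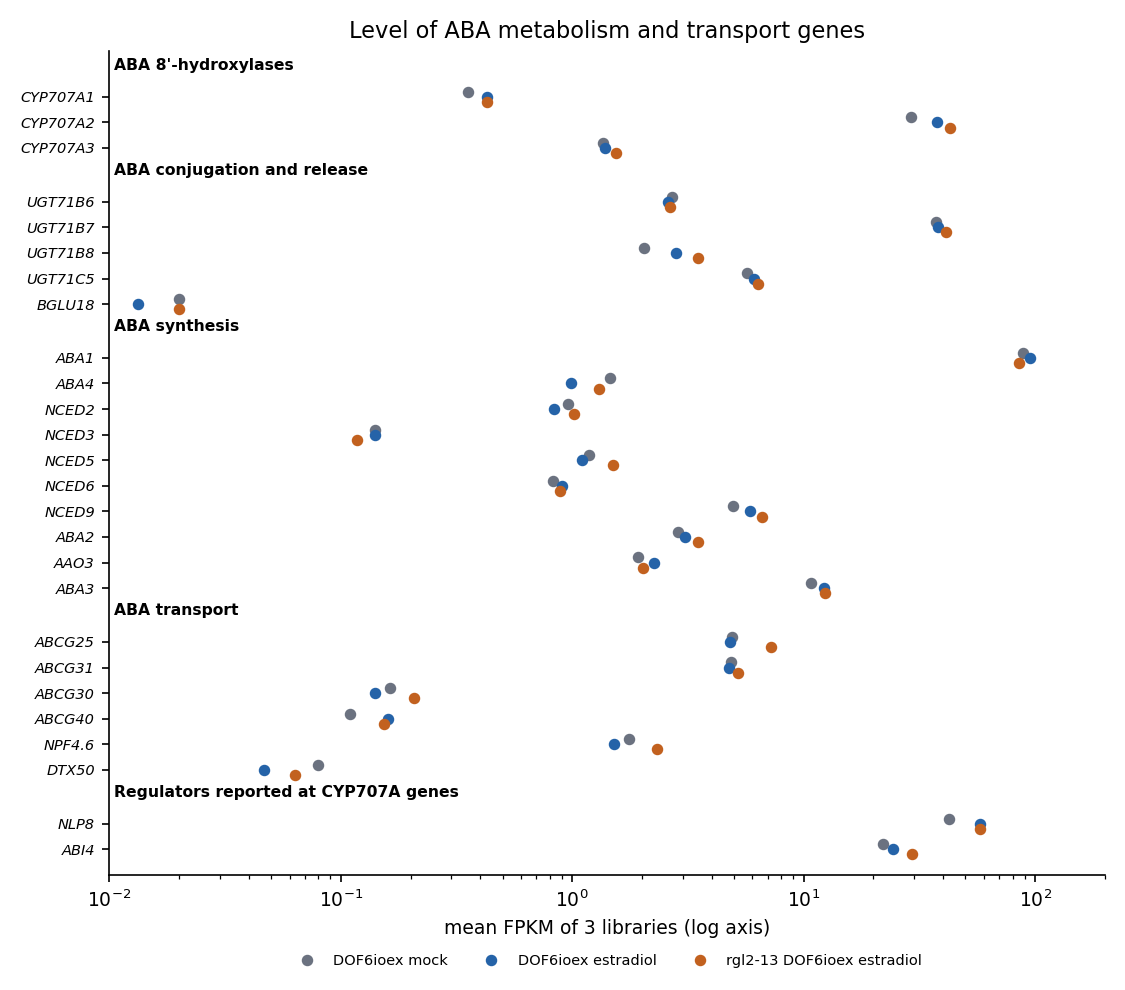
Mean FPKM of 3 libraries (log axis) in each group for the 3 hydroxylase genes and for genes of ABA conjugation, synthesis, transport and regulation. CYP707A2 and UGT71B7 have the highest levels of the inactivation genes, between 29.0 and 42.8 FPKM, and ABA1 the highest of the synthesis genes.

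Markers of the seed's tissues were set beside these results. The summed level of 9 mature seed markers ran from 85170 to 117483 FPKM in mock, from 83339 to 91012 in DOF6ioex estradiol and from 71997 to 77825 under the mutant label, so it was lowest where CYP707A2 was highest. CRU2, a cruciferin storage protein gene, fell against mock under the mutant label by 0.54 on the log2(FPKM + 1) scale (limma adjusted p = 0.0451). In that comparison 0 of the other 8 passed, and 0.57% of all tested genes passed in either direction. All 9 were fitted lower than in mock, and 7 had an unadjusted limma p under 0.05, against 25.2% of all tested genes. The 5 endosperm markers summed to 42112 to 54209, 37199 to 50210 and 33835 to 67436 FPKM, nearly all from EPR1. Of the 3 tested endosperm markers, EXPA2 and MAN7 rose under the mutant label against DOF6ioex estradiol, where 0.161% of all tested genes passed and 0.139% rose. EXPA2, an expansin gene of the endosperm, averaged 4.28, 2.93 and 10.6 FPKM (limma adjusted p = 0.00277), and MAN7, an endo-mannanase gene, 5.34, 3.67 and 8.74 (limma adjusted p = 0.0184). ZOU and NAC25 were at 0.01 FPKM, the lowest listed value, or not listed in all 3 libraries labelled rgl2-13 DOF6ioex. In mock and DOF6ioex estradiol they did not exceed 0.05 FPKM, so they were near the lowest value in every group. The 4 testa markers summed to 2.67 to 3.13, 3 to 3.32 and 3.26 to 3.87 FPKM, nearly all from MUM4. BAN, TT10 and TT12 were likewise at 0.01 or not listed in DOF6ioex estradiol. In the other groups they did not exceed 0.07 FPKM. The part of these markers in the CYP707A2 values was not tested.

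Among the 9290 tested genes with a group mean of at least 5 FPKM, those most like each hydroxylase gene were ranked by Pearson's r of log2(FPKM + 1) over the 9 libraries. The points share depth and group, and r is a description. For CYP707A2 the highest were AT4G13180, annotated as an NAD(P)-binding Rossmann-fold protein (r = 0.976), AT2G33730 (0.974), the ABC transporter gene ABCB4 (0.972), TKL (0.971) and the RWP-RK family gene AT1G20640 (0.970). ABCB4 averaged 8.43, 17.6 and 22.8 FPKM in the same order of groups, and AT4G13180 27.9, 36.0 and 39.8. In all, 188 genes had r of 0.9 or more with CYP707A2, against 3 for CYP707A3 and 0 for CYP707A1. At r of -0.9 or less there were 3 genes for CYP707A2, 0 for CYP707A3 and 4 for CYP707A1. These counts cannot be compared between the 3 genes, since counting error can lower r. CYP707A2 rested on 1382 to 2386 estimated fragments per library, CYP707A3 on 60 to 92 and CYP707A1 on 13 to 31. Without the mutant-labelled replicate 1, r for the 5 genes most like CYP707A2 was 0.956 to 0.970. The lowest values for CYP707A2 were those of the ferredoxin gene FD4 (r = -0.938), AT3G11930 (-0.913) and the oleosin family gene AT2G25890 (-0.912). CYP707A3 was most like PERK8 (r = 0.917), AT3G05940 (0.917), AFH14 (0.909), AT3G55430 (0.89) and ASG1 (0.886), with VAMP712 (-0.887), GSTF9 (-0.886) and AT5G01390 (-0.851) at the other end. CYP707A1 was most like AT5G01990 (0.888), AT3G60850 (0.853), AT1G27750 (0.839), LPA3 (0.836) and AT2G20780 (0.831), with the peroxiredoxin gene PRXIIF (-0.944), AT3G32930 (-0.937) and CYP71A26 (-0.931) lowest. Among the hydroxylase genes themselves r was 0.39 for CYP707A2 with CYP707A3, 0.506 for CYP707A1 with CYP707A3 and 0.289 for CYP707A1 with CYP707A2.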

How the data were processed

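The aligner was HISAT, per the submitters' processing notes, and its version, the genome build and the quantifier were not stated in the sources used here. The authors deposited 6 tables of library pairs with FPKM per gene, and in 1 of them the values are headed RPKM, per the file headers, and equalled the FPKM of the shared library. Each table also holds the authors' deposited log2 ratio, a deposited p-value whose test has no name, and FDR values, which in 2 deposited tables exceeds 1 and was read as a score. Tables were joined by locus, and a gene not listed for a library was set to the lowest listed value, 0.01 (1217 to 2292 genes per library, 8 of the genes tested and 0 of the 3 hydroxylases). Genes that reached 1 FPKM in 3 or more libraries (13679 of 22555) were tested with limma 3.58.1 (trend, R 4.3.3) on log2(FPKM + 1), which understates changes of low genes, with all 9 libraries in 1 model, no covariate and Benjamini-Hochberg adjusted p under 0.05. The script was tested on simulated data. Depth was estimated from the steps between low values. With full gene lengths, 79.1 to 89.3% of values were whole fragments within 0.15, against 30% by chance. With 50 bases taken off each length the estimate was 29000000 to 31500000 fragments and the share 82.6 to 90.9%, so no count test was run. Intervals from depth cover counting error only. Genes of each list were named if called or among the 4 of highest mean FPKM, and genes like a member by the 5 highest and 3 lowest r. The members, lists and tests were chosen with earlier results of these data known. Sequences and coordinates are RefSeq's, TAIR10.1. Alternatives were another pseudocount (0.1), no filter, 2 scalings, 6 libraries in the fit, a replicate block, no trend, and leaving out each library.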

Additional observations from a re-analysis of the deposited data

How the results depend on the processing

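CYP707A2 kept a positive difference in the 3 comparisons under each of 16 alternatives. Some of these alternatives can change only a gene's p-value, and its difference stays the same. They are no filter, 6 libraries, the replicate block, no trend, and leaving out a library outside the comparison. Against mock, the libraries labelled rgl2-13 DOF6ioex differed by 0.38 to 0.63 and passed in 7 of the 16. The value of 0.541 missed the threshold without a filter (limma adjusted p = 0.119), with 6 libraries (0.114) and with the replicate block (0.0682), and leaving out 1 library gave 0.457 to 0.629 (adjusted p = 0.0143 to 0.151). DOF6ioex estradiol against mock gave 0.368 with 6 libraries, where it passed, and 0.357 to 0.375 with 1 library left out (adjusted p = 0.0329 to 0.999). CYP707A3 in that comparison turned to -0.000295 with median-of-ratios and -0.00346 with upper quartile scaling, and ranged from -0.0635 to 0.147 with 1 library left out. CYP707A1 moved to 0.229 and, for the mutant label against mock, to 0.244 with a pseudocount of 0.1, at 13 to 31 fragments a library. The cause was not tested.

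Counts of called genes depended on the setting. Estradiol against mock (21 genes) gave 4 without a filter, 56 and 57 with median-of-ratios and upper quartile scaling, 100 with 6 libraries, 12 with the block and 5 to 90 with 1 library left out (90 without the mutant-labelled replicate 1, 5 without DOF6ioex estradiol replicate 3). With median-of-ratios scaling 7 of the 56 were higher, against 4 of 21. The labels within estradiol (22 genes) gave 4 without a filter, 7 with 6 libraries, 11 with the block and 8 to 26 with 1 library left out. The mutant label against mock (78 genes) gave 5, 141 and 140 for the filter and the scalings, 15 with 6 libraries, 12 with the block and 7 to 224 with 1 library left out. Replicate numbers were shared by the groups, and the labels do not say whether they pair the samples. Deviations from the group mean correlated at -0.412 to 0.253 between same-numbered libraries and at -0.389 to 0.355 between libraries of different number. With 3 libraries a group this cannot exclude a shared harvest or batch, so whether the block stands for a design is not known. DOF6 passed in all 16 alternatives, RGL2 in 10 and UGT71B8 in 6, with no change of direction.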
